A study of Mus musculus with 8 samples.

Results

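Autophagy and lysosomal degradation were described in hearts of 2-week-old mice through 48 genes, chosen as a fixed list of symbols matched by Ensembl identifier in the GENCODE M21 annotation (build GRCm38). All 48 matched, among 53465 Ensembl genes counted, and 47 of them were tested. The tested hearts were 5 Lmna knockout hearts treated with AAV9, a serotype 9 adeno-associated virus, to put back wild-type LMNA (Lmna-/-:AAV9 Lmna WT, replicates 1 to 5, called AAV9-LMNA below). They were compared with 3 Lmna knockout hearts whose labels name no vector (Lmna-/-, replicates 6, 7 and 8, called untreated below). All 8 hearts carried the knockout, on a background given as mixed. Lmna encodes lamins A and C, filament proteins under the inner nuclear membrane, and AAV9 is a vector that reaches heart muscle well. No source used here gives the knockout allele, the vector's promoter or dose, or the sex or litter of the animals. Wild-type hearts and hearts given an empty vector were not analysed here, so LMNA and the vector itself cannot be told apart.

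Autophagy encloses cytoplasm in a double membrane and delivers it to the lysosome. The ULK1 kinase complex starts it, a phosphatidylinositol 3-kinase complex around beclin 1 marks the membrane, and ubiquitin-like conjugation enzymes attach ATG8 proteins (the LC3 and GABARAP families) to lipid. The lysosome then digests the cargo with acid hydrolases, in a lumen kept acidic by the V-ATPase, a rotary proton pump with a membrane part (V0) and a cytosolic ATP-splitting part (V1). Heart muscle cells rarely divide and depend on this route to clear damaged organelles. Defects in lysosomal proteins such as acid alpha-glucosidase or LAMP2 cause heart muscle disease in people. TFEB and TFE3 are transcription factors that switch on many lysosomal genes by binding an E-box word, CACGTG, in their promoters.

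Promoters are shown first because that word stood in some of them. RefSeq's table of promoters (GRCm38.p6, 250 bases before to 50 after each start) held an entry for 38 of the 48 genes. CACGTG, which reads the same on both strands, was in the promoter of 13 of the 38 (34.2%). It was in 7.15% of all 32851 promoters of the table and in 9.52% of the 13744 that belong to coding genes tested here. These shares count promoters, not genes, and some members have more than 1. Counted that way the word was in 13 of the 43 promoters of members (30.2%). The longer word TCACGTG, searched on both strands and containing CACGTG, was in 11 of the 38 genes (28.9%). By promoter it was in 11 of 43 (25.6%), against 5.57% of the promoters of tested coding genes. These matches are letters in a window and show no binding. The 250 bases before the start of 4 lysosomal genes are given 5′ to 3′ on the gene's strand, with each CACGTG in capitals.
Lamp1, chr8:13158911-13159160, plus strand: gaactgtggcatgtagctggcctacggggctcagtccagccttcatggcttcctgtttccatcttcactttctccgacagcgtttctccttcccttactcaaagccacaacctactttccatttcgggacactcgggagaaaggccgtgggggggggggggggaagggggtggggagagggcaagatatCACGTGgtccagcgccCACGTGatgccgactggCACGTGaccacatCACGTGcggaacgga
Ctsd, chr7:142387828-142388077, minus strand: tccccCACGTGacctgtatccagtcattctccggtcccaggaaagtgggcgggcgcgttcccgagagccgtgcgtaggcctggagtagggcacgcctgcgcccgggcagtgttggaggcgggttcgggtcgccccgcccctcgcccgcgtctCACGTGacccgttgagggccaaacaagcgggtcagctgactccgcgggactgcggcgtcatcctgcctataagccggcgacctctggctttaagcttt
Ctsa, chr2:164833523-164833772, plus strand: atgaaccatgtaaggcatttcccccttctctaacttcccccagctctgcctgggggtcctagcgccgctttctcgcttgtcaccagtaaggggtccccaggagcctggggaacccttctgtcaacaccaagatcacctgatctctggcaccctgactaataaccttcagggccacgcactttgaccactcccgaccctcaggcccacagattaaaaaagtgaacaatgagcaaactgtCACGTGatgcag
Mcoln1, chr8:3500269-3500518, plus strand: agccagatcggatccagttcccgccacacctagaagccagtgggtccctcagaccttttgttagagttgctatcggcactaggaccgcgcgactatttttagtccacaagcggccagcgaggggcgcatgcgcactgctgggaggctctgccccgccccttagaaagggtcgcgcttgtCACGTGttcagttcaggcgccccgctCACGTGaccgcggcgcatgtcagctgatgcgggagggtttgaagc
Lamp1 held 4 copies, whose first bases lay at -61, -45, -28 and -15 from the start of transcription. Mcoln1 held 2, at -71 and -45. Ctsd held 2, at -245 and -98, and Ctsa 1 at -12 and another just past the start, outside the bases shown. A further listed promoter of Ctsa held 0.

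The word was found in called and in uncalled members. It was in 4 of the 13 members called higher for which a promoter was listed (Atp6v0e, Ctsa, Ctsd and Lamp1). It was in 9 of the 23 that passed no test and in 0 of the 2 called lower. Tfeb and Tfe3 themselves did not pass. Tfe3 had 23.8, 23.8, 25.9, 21.8 and 23.2 CPM (counts scaled to library size) in AAV9-LMNA replicates 1 to 5, against 22.8, 24.5 and 18.5 CPM in untreated replicates 6, 7 and 8. These ranges overlapped, and the log2 ratio stood at 0.11 ± 0.12 (SE, edgeR adjusted p = 0.504). Tfeb averaged 59.7 ± 7.22 CPM in AAV9-LMNA and 59.0 ± 12.1 CPM in untreated hearts (SD, n = 5 and 3), with a log2 fold change of 0.017 (edgeR adjusted p = 0.935).

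The libraries held 21576949 to 26492443 counts on annotated features in AAV9-LMNA and 21439956 to 24021970 in untreated hearts. Reads outside every feature made up 12.1 to 12.9% in AAV9-LMNA and 16.8 to 24.7% in untreated libraries, with untreated replicate 6 highest. Ambiguous reads, dropped because they touched more than 1 feature, made up 24.0 to 26.4% in AAV9-LMNA and 21.0 to 24.9% in untreated libraries. Lmna, the check of the labels, had 393, 227, 325, 312 and 747 CPM in AAV9-LMNA replicates 1 to 5 and 46.4, 68.7 and 32.3 CPM in untreated replicates 6, 7 and 8. It averaged 401 ± 202 CPM in AAV9-LMNA and 49.1 ± 18.3 CPM in untreated hearts (SD, n = 5 and 3). Ventricular muscle markers (10 genes, among them Myh6 and Tnnt2) summed to 60248 to 72659 CPM in AAV9-LMNA and 50158 to 76283 CPM in untreated hearts. Atrial markers (5 genes) summed to 59.1 to 177 CPM in AAV9-LMNA libraries. They summed to 80.9, 63.1 and 977 CPM in untreated replicates 6, 7 and 8, so replicate 8 stood apart. Macrophage markers (17 genes, none at 0) summed to 697 to 791 CPM in AAV9-LMNA. In untreated replicates 6, 7 and 8 they summed to 245, 864 and 383 CPM. By edgeR 0 of these 17 were called and 2 had an unadjusted p under 0.05, while DESeq2 and limma-voom called 3 each. Fibroblast markers (7 genes, among them Col1a1) summed to 4439 to 6985 CPM in AAV9-LMNA and to 1655, 5996 and 6842 CPM in untreated replicates 6, 7 and 8, so replicate 6 was low in both marker lists. In bulk tissue, fewer cells of a type and less RNA per cell cannot be told apart.

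Of the 47 tested genes, 16 rose in AAV9-LMNA hearts, 3 fell and 28 were not called (quasi-likelihood test of edgeR, threshold 0.05 after Benjamini-Hochberg adjustment over 26717 features). That is 34% higher and 6.38% lower. Over all 26717 features 2843 were called higher and 4015 lower, and over the 13785 coding genes 18.4% were called higher and 6.07% lower. The median log2 fold change of the members was 0.24, beside 0.21 over coding genes and -0.03 over all features. The folds of called members were modest, from 1.22 to 1.67 for those that rose. The CPM ranges of the groups did not overlap for 17 members higher and 3 lower, against 23.1% and 6.61% of coding genes.

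The balance of rises and falls depended on the scaling. With Ensembl genes scaled and tested alone the median feature moved by -0.19, and 5 members were higher and 3 lower, where 4.49% and 8.73% of coding genes were. With each library also corrected for transcript length and GC content the median feature moved by -0.24, leaving 2 members higher and 2 lower, where 2.40% and 5.05% of coding genes were. Their median was then 0.01, beside 0.01 over coding genes. Across the 47 members the log2 fold change ran against exonic length with a Spearman rho of -0.25, and of -0.44 over 11600 coding genes whose mean log2 CPM exceeded 1. After the correction the members' rho was 0.08. These are descriptions across genes of the same 8 libraries. Becn1, Atg13 and Npc1 kept their calls in each of the 16 alternatives run.

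**Figure D1:**
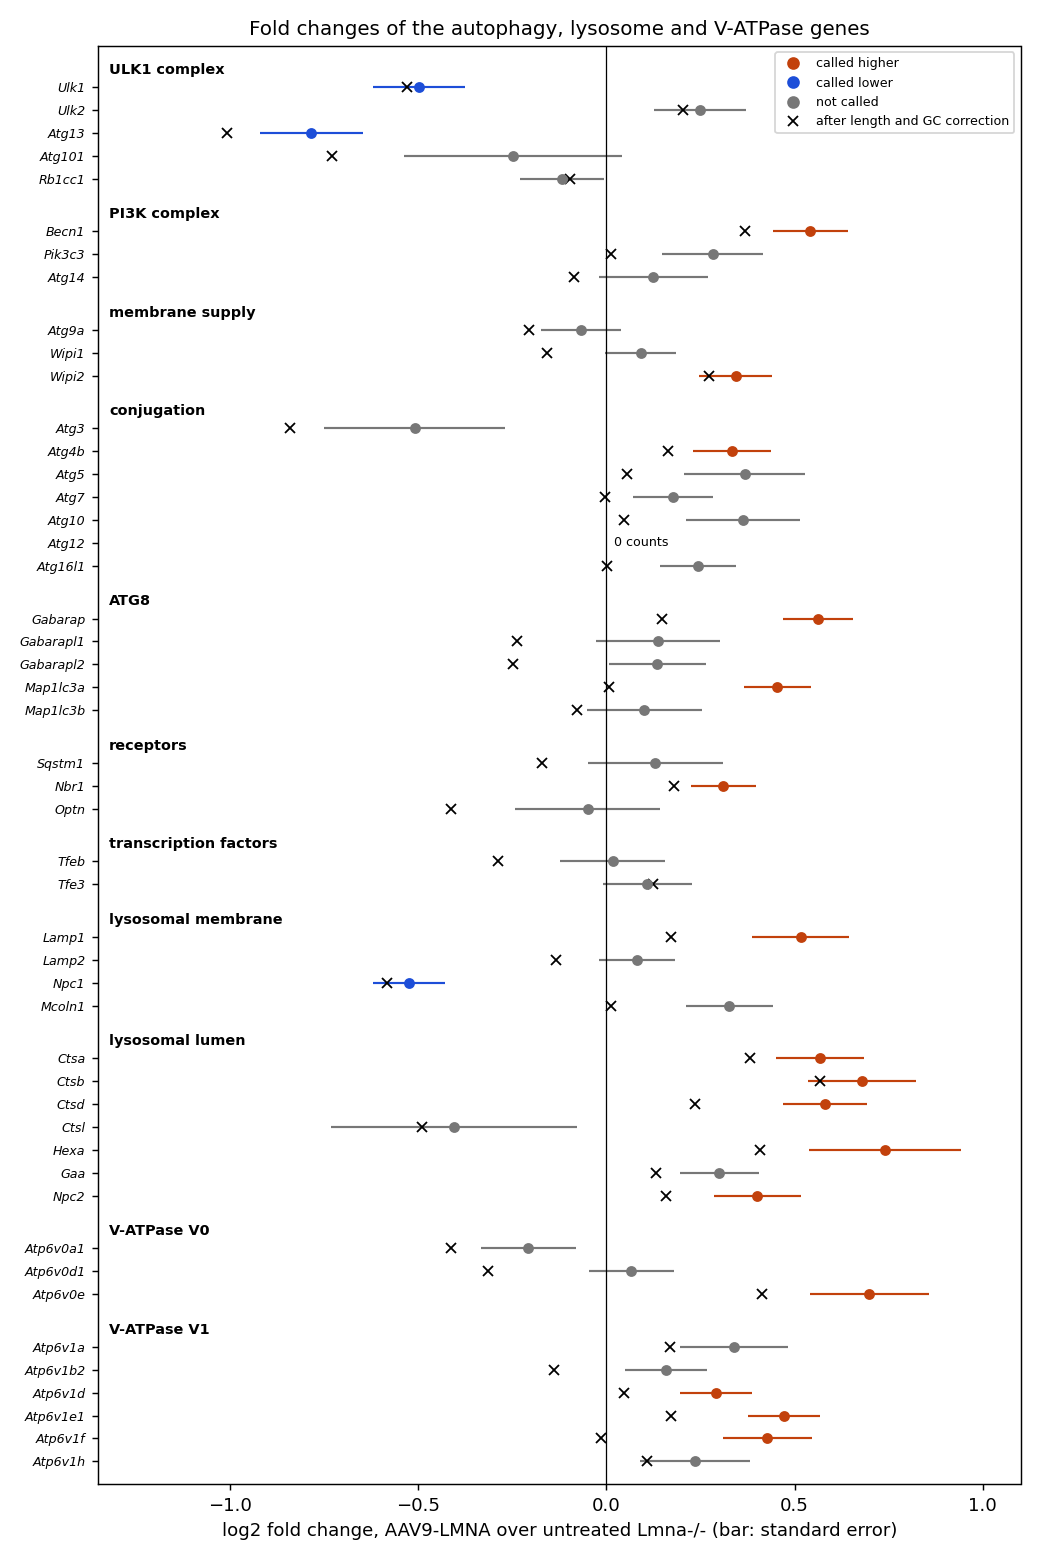
Log2 fold change of each member (x axis, AAV9-LMNA over untreated, circle with standard error, n = 5 and 3), grouped by role. Crosses give the value after the length and GC correction, which lies left of the circle for most members and stayed called for Atg13 (-1.01), Npc1 (-0.58), Becn1 (0.37) and Ctsb (0.57).

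The ULK1 complex, which starts autophagy, was the role group in which 2 members fell and 0 rose. Atg13, the scaffold that links the kinase to its partners (chromosome 2, 91674618 to 91710576, minus strand), had 23.3, 23.1, 20.5, 21.9 and 22.9 CPM in AAV9-LMNA replicates 1 to 5. It had 45.7, 40.6 and 28.9 CPM in untreated replicates 6, 7 and 8, so every AAV9-LMNA library lay below every untreated one. On the log2 scale the difference was -0.78 ± 0.14 (SE, edgeR adjusted p = 0.00449). The fall was as large or larger with Ensembl genes alone (-0.99), after the length and GC correction (-1.01) and against untreated replicate 7 alone (-0.85).

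Ulk1, the kinase itself (chromosome 5, 110784488 to 110810097, minus strand), had 86.6, 73.2, 71.1, 65.7 and 60.5 CPM in AAV9-LMNA hearts. In untreated hearts it had 113, 99.8 and 90.0 CPM, and the lowest of these lay above the highest AAV9-LMNA library. This gave -0.50 ± 0.12 log2 units (SE, edgeR adjusted p = 0.0159). It was -0.53 and no longer called after the length and GC correction (edgeR adjusted p = 0.0558), and -0.47 without a call against untreated replicate 7 alone (edgeR adjusted p = 0.0779). Its relative Ulk2 had a log2 fold change of 0.25 and was not called (edgeR adjusted p = 0.145). Atg101, a partner of Atg13, averaged 27.1 ± 4.98 CPM in AAV9-LMNA and 32.1 ± 17.1 CPM in untreated hearts, where replicate 6 held 51.4 CPM and replicates 7 and 8 held 18.8 and 26.3. Rb1cc1, the large scaffold FIP200, had a log2 fold change of -0.12 and was not called.

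Becn1 rose in the phosphatidylinositol 3-kinase complex. Beclin 1, its product, holds the lipid kinase to the membrane (chromosome 11, 101285952 to 101302286, minus strand). It had 47.3, 54.7, 57.2, 49.9 and 52.9 CPM in AAV9-LMNA hearts, against 33.6, 35.4 and 38.9 CPM in untreated hearts. The groups did not overlap, and the log2 ratio stood at 0.54 ± 0.10 (SE, edgeR adjusted p = 0.00547). It was 0.35 with Ensembl genes alone, 0.37 after the length and GC correction and 0.58 against untreated replicate 7 alone. Of its exonic bases 43.9% are shared with Cntd1, on either strand. Reads on shared bases may have been dropped as ambiguous, and the strand setting is not given, so its counts are uncertain. The kinase gene Pik3c3 (0.28) and Atg14, which directs the complex to autophagy (0.13), were not called (edgeR adjusted p = 0.136 and 0.532).

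Among genes that bring membrane and lipid signals, Wipi2 rose. WIPI2 binds the lipid made by that kinase and recruits the conjugation machinery (chromosome 5, 142627698 to 142670588, plus strand). It had 45.1, 39.0, 43.3, 38.3 and 38.4 CPM in AAV9-LMNA hearts, against 32.2, 31.2 and 33.0 CPM in untreated hearts, all lower. Its log2 difference was 0.34 ± 0.097 (SE, edgeR adjusted p = 0.0265). Leaving out any 1 of AAV9-LMNA replicates 1, 2 and 3 ended the call (0.30 to 0.35, edgeR adjusted p 0.0503 to 0.0712), as did testing Ensembl genes alone (0.14) and the length and GC correction (0.27). Wipi1 (0.091) and Atg9a, the lipid scramblase of seed vesicles (-0.068), were not called.

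Conjugation enzymes made up 7 members, of which 1 rose, 5 passed no test and Atg12, listed at 0, was not tested. Atg4b, the protease that trims ATG8 proteins (chromosome 1, 93751500 to 93790610, plus strand), had 35.2, 38.9, 41.2, 39.0 and 36.9 CPM in AAV9-LMNA hearts, against 27.8, 34.1 and 29.1 CPM in untreated hearts. The lowest AAV9-LMNA library lay just above untreated replicate 7. AAV9-LMNA over untreated, the log2 ratio was 0.33 ± 0.10 (SE, edgeR adjusted p = 0.0377). Leaving out any 1 of AAV9-LMNA replicates 2 to 5 or untreated replicates 6 and 8 ended the call (0.28 to 0.34, edgeR adjusted p 0.058 to 0.096). It was also lost with Ensembl genes alone (0.14), after the length and GC correction (0.16) and against untreated replicate 7 alone (0.18), with an edgeR adjusted p of 0.298, 0.269 and 0.423. With no filter (0.37) and with at least 1 CPM in 3 libraries (0.28) it just missed (edgeR adjusted p = 0.0541 and 0.0513).

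Atg5, Atg7, Atg10 and Atg16l1, which carry or anchor the ubiquitin-like chain, had log2 fold changes of 0.37, 0.18, 0.36 and 0.24 and were not called (edgeR adjusted p 0.0935 to 0.226). Atg3, the enzyme that transfers ATG8 to lipid, held only 1.17, 1.48, 1.14, 1.16 and 1.72 CPM in AAV9-LMNA and 2.09, 1.71 and 1.91 CPM in untreated hearts, with a log2 fold change of -0.51 (edgeR adjusted p = 0.136). Atg12 was listed at 0 counts in all 8 libraries. A count without strand over Ensembl and NONCODE genes together drops reads that touch both, and NONCODE coordinates were not used here, so a count of 0 or near 0 gives no level for such a gene.

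Among the 5 ATG8 genes, whose products coat the forming membrane and bind cargo receptors, 2 rose and 3 were not called. Gabarap (chromosome 11, 69991143 to 69994951, plus strand) had 128, 128, 119, 137 and 143 CPM in AAV9-LMNA hearts, against 84.1, 94.8 and 87.2 CPM in untreated hearts. The lowest AAV9-LMNA library lay well above the highest untreated one. On the log2 scale the difference was 0.56 ± 0.093 (SE, edgeR adjusted p = 0.00392), 0.37 with Ensembl genes alone, and 0.15 without a call after the length and GC correction (edgeR adjusted p = 0.359).

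Map1lc3a, which encodes LC3A (chromosome 2, 155276297 to 155278073, plus strand), had 239, 251, 259, 259 and 263 CPM in AAV9-LMNA hearts, against 183, 202 and 172 CPM in untreated hearts. The groups stayed apart, and the log2 ratio stood at 0.45 ± 0.088 (SE, edgeR adjusted p = 0.00656). Its exonic length is 1181 bases, among the shortest of the members. With Ensembl genes alone the value was 0.26 and not called (edgeR adjusted p = 0.0833). With length and GC corrected it was 0.0085 (edgeR adjusted p = 0.962). Map1lc3b (LC3B) had 0.10, Gabarapl1 0.14 and Gabarapl2 0.14 on the log2 scale, none of them called.

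Nbr1 rose among the 3 cargo receptors, which tie ubiquitin-tagged cargo to ATG8 proteins. It (chromosome 11, 101552149 to 101581951, plus strand) had 255, 222, 239, 220.3 and 222 CPM in AAV9-LMNA hearts, against 191, 181 and 188 CPM in untreated hearts, without overlap. This gave 0.31 ± 0.087 log2 units (SE, edgeR adjusted p = 0.0253). Leaving out any 1 of AAV9-LMNA replicates 2 and 3 and untreated replicate 8 ended the call (0.29 to 0.32, edgeR adjusted p 0.0504 to 0.0694), as did testing Ensembl genes alone (0.11) and the length and GC correction (0.18). Sqstm1, the receptor p62, had 623, 474, 475, 506 and 399 CPM in AAV9-LMNA hearts, against 489, 548 and 320.5 CPM in untreated hearts. Its groups overlapped, with a log2 fold change of 0.13 (edgeR adjusted p = 0.601). Optn, optineurin, averaged 66.7 ± 4.77 CPM in AAV9-LMNA and 69.1 ± 27.4 CPM in untreated hearts, where replicate 6 alone held 101 CPM.

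**Figure D2:**
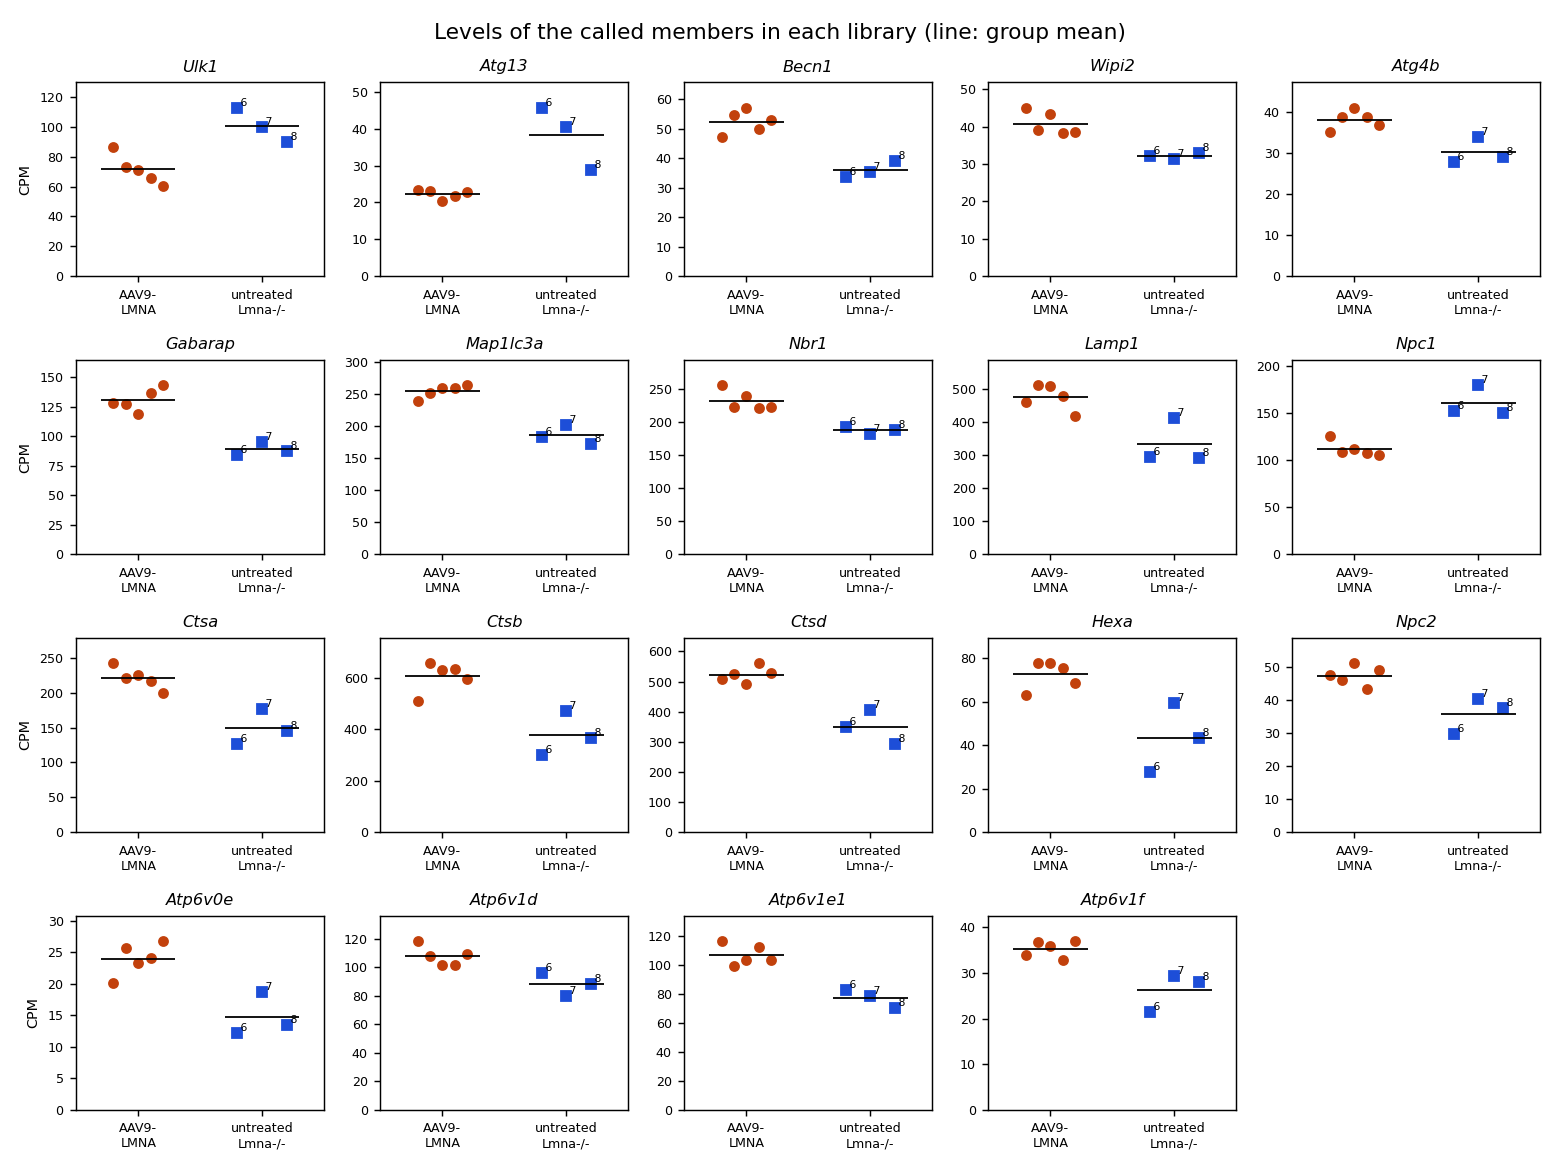
CPM (y axis, from 0) of the 19 called members in each library, AAV9-LMNA left (circles, n = 5) and untreated Lmna-/- right (squares numbered by replicate, n = 3), with the group mean as a line. The groups do not overlap in any panel, and untreated replicate 7 is the highest untreated library in 11 of the 16 panels that rose. How often this holds over all coding genes called higher was not counted.

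Lysosomal lumen genes were the role group with the most rises, 5 of 7, with 0 falls and a median log2 fold change of 0.57. Over coding genes 18.4% were called higher and the median was 0.21. With Ensembl genes alone 2 of the group were higher (median 0.38, beside 0.02 over coding genes). After the length and GC correction 1 was higher (median 0.24, beside 0.01 over coding genes). Ctsb, cathepsin B (chromosome 14, 63122462 to 63145923, plus strand), had 510.4, 656, 629.9, 636 and 595 CPM in AAV9-LMNA hearts, against 298, 470.1 and 366 CPM in untreated hearts. Untreated replicate 7 came nearest to the AAV9-LMNA range and replicate 6 lay farthest from it. Its log2 difference was 0.68 ± 0.14 (SE, edgeR adjusted p = 0.00916), or 1.6-fold. It stayed called with Ensembl genes alone (0.49) and after the length and GC correction (0.57, edgeR adjusted p = 0.0301), and not against untreated replicate 7 alone (0.38, edgeR adjusted p = 0.0941).

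Ctsd, cathepsin D, the main aspartic protease of the lysosome (chromosome 7, 142375911 to 142388038, minus strand), had 509.5, 524, 491, 560.4 and 527 CPM in AAV9-LMNA hearts, against 349, 406 and 293 CPM in untreated hearts. Each AAV9-LMNA value was above each untreated one. AAV9-LMNA over untreated, the log2 ratio was 0.58 ± 0.11 (SE, edgeR adjusted p = 0.00602), 0.39 without a call with Ensembl genes alone (edgeR adjusted p = 0.057) and 0.24 without a call after the length and GC correction (edgeR adjusted p = 0.252). Of its exonic bases 34.4% are shared with Gm49369, so its counts are uncertain.

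Ctsa, the protective protein of the sialidase complex (chromosome 2, 164832873 to 164841032, plus strand), had 242, 221, 225, 217 and 199 CPM in AAV9-LMNA hearts, against 126, 176 and 145 CPM in untreated hearts. The groups did not overlap. On the log2 scale the difference was 0.57 ± 0.12 (SE, edgeR adjusted p = 0.00827), 0.38 and still called with Ensembl genes alone, and 0.38 after the length and GC correction (edgeR adjusted p = 0.0543). Hexa, the alpha subunit of beta-hexosaminidase (chromosome 9, 59539540 to 59565109, plus strand), had 63.0, 77.7, 77.6, 75.7 and 68.7 CPM in AAV9-LMNA hearts, against 27.5, 59.4 and 43.4 CPM in untreated hearts.

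Among the members that rose Hexa had the largest fold, 1.67, and untreated replicate 7 held far more of it than replicate 6. This gave 0.74 ± 0.20 log2 units (SE, edgeR adjusted p = 0.0252). Leaving out any 1 of AAV9-LMNA replicates 2 and 3 and untreated replicate 8 ended the call (0.71 to 0.75, edgeR adjusted p 0.0516 to 0.0676), and the value was 0.51 without untreated replicate 6. It was 0.57 with Ensembl genes alone and 0.41 after the length and GC correction, neither called (edgeR adjusted p = 0.0617 and 0.156). Npc2, which carries cholesterol inside the lysosome (chromosome 12, 84754562 to 84773152, minus strand), had 47.3, 46.0, 51.0, 43.1 and 48.9 CPM in AAV9-LMNA hearts, against 29.7, 40.3 and 37.4 CPM in untreated hearts. Its log2 difference was 0.40 ± 0.12 (SE, edgeR adjusted p = 0.0283), lost without any 1 of AAV9-LMNA replicates 2, 3 and 5 and untreated replicate 6 (0.29 to 0.40, edgeR adjusted p 0.054 to 0.0672). It was 0.21 with Ensembl genes alone and 0.16 after the length and GC correction, neither called (edgeR adjusted p = 0.147 and 0.277).

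Exonic bases shared with other genes made up 17.4% for Ctsa (Neurl2 and Pltp), 12.8% for Ctsb (Fdft1) and 12.8% for Hexa (Tmem202), whose counts are uncertain. These shares count bases rather than reads and leave out NONCODE genes, so they set no bound on the reads dropped. The same holds for members not called, with 32.6% for Atg9a, 28.3% for Gabarapl1, 26.9% for Ctsl and 17.3% for Sqstm1.

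Gaa, acid alpha-glucosidase, which breaks down glycogen in the lysosome, averaged 157 ± 12.4 CPM in AAV9-LMNA and 128 ± 14.7 CPM in untreated hearts, with a log2 fold change of 0.30 that just missed the threshold (edgeR adjusted p = 0.0539). Ctsl, cathepsin L, had 313, 302, 321, 298 and 283 CPM in AAV9-LMNA hearts, against 702, 215 and 288 CPM in untreated hearts. Untreated replicate 6 lay far above all other libraries and replicate 7 below them all. AAV9-LMNA over untreated, the log2 ratio was -0.41 ± 0.33 (SE, edgeR adjusted p = 0.375). It was 0.28 without replicate 6, and 0.51 and called against replicate 7 alone (edgeR adjusted p = 0.0135), so the sign rested on 1 library.

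Of the 4 lysosomal membrane genes 1 rose and 1 fell. Npc1, which moves cholesterol out of the lysosome and takes it from NPC2 (chromosome 18, 12189692 to 12236400, minus strand), had 125, 109, 112, 108 and 105 CPM in AAV9-LMNA hearts, against 152, 179 and 150.1 CPM in untreated hearts. All AAV9-LMNA libraries lay below all untreated ones, with replicate 7 the highest. On the log2 scale the difference was -0.52 ± 0.096 (SE, edgeR adjusted p = 0.00531). It was -0.72 with Ensembl genes alone, -0.58 after the length and GC correction and -0.67 against untreated replicate 7 alone, and it was called each time. Its partner Npc2 was called higher, and kept that call in 9 of the 16 alternatives.

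Lamp1, a main glycoprotein of the lysosomal membrane (chromosome 8, 13159161 to 13175338, plus strand), had 460.4, 512, 509, 479 and 419 CPM in AAV9-LMNA hearts, against 296, 412 and 291 CPM in untreated hearts. The lowest AAV9-LMNA library and untreated replicate 7 lay close together. This gave 0.52 ± 0.13 log2 units (SE, edgeR adjusted p = 0.0167), and 0.44 without a call when untreated replicate 8 was left out (edgeR adjusted p = 0.0544). It was 0.33 and not called with Ensembl genes alone (edgeR adjusted p = 0.1). With length and GC corrected it was 0.17 (edgeR adjusted p = 0.387). Its relative Lamp2 had a log2 fold change of 0.081 (edgeR adjusted p = 0.562). Mcoln1, the calcium channel of the lysosome, had 24.6, 25.2, 27.8, 26.5 and 25.4 CPM in AAV9-LMNA hearts, against 23.8, 18.1 and 20.0 CPM in untreated hearts. Its groups did not overlap, yet it missed the threshold at 0.33 (edgeR adjusted p = 0.0566).

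The macrophage marker sums moved with several of these genes. Untreated replicate 6, with the lowest marker sum, also had the lowest Ctsb, Ctsa, Hexa, Npc2 and Lamp2. Replicate 7, with the highest marker sum, had the highest untreated value of each. Ctsd, Lamp1 and Npc1 were also highest of the untreated in replicate 7, yet lowest in replicate 8. Ctsl and Mcoln1 ran against the sums, highest of the untreated in replicate 6 and lowest in replicate 7. Gaa was highest of the untreated in replicate 6 and lowest in replicate 8. Replicate 7 had a marker sum of 864 CPM, above the 697 to 791 CPM of AAV9-LMNA. Its Ctsb, Ctsa, Hexa and Npc2 lay below every AAV9-LMNA library, as did every untreated library for each member called higher. Lamp2, not called, stood at 220 CPM in replicate 7, within the 199 to 251 CPM of AAV9-LMNA. Reads outside features also ran against the sums, highest in replicate 6 and lowest of the untreated in replicate 7. Macrophages hold many lysosomes, and the part of either measure in these results was not tested. Over all 16 members that rose, replicate 7 was the highest untreated library for 11 and replicate 6 the lowest for 9. The same was not counted over all coding genes called higher, so this order may not be particular to the members. Leaving out untreated replicates 6 and 8 leaves 1 untreated heart, assumed to vary like the others. Of the 19 called members 0 then changed the sign of their log2 fold change. Their values ran from 0.18 (Atg4b) to 0.58 (Becn1) for rises and from -0.85 (Atg13) to -0.47 (Ulk1) for falls. Most rises were smaller than with all 8 libraries, and those of Becn1, Wipi2, Nbr1 and Atp6v1d were larger. A call kept or lost in that fit says little of a member, since 1 heart shows no spread.

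**Figure D3:**
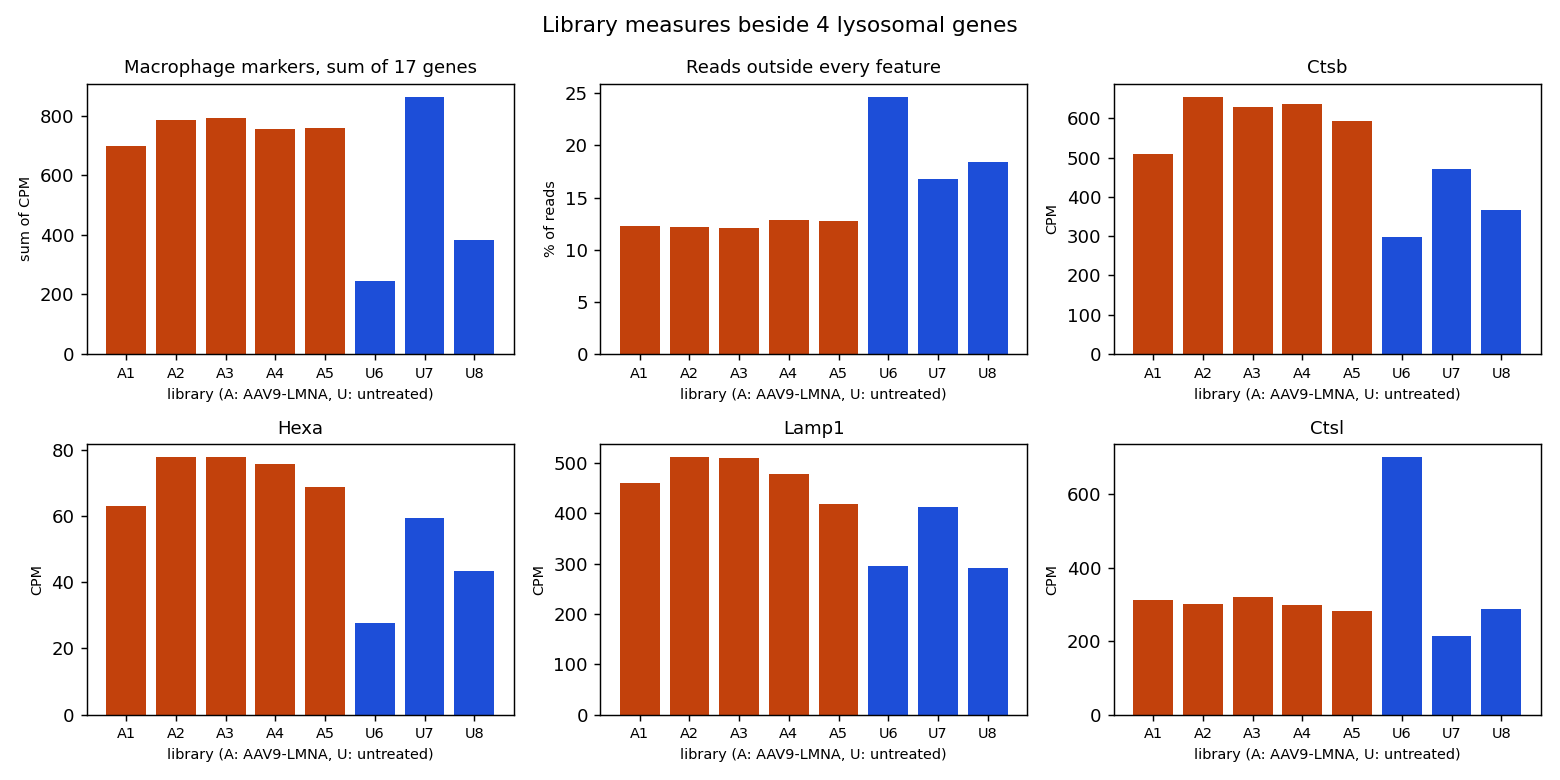
Bars from 0 for each library (A1 to A5 AAV9-LMNA, U6 to U8 untreated): summed CPM of 17 macrophage markers, percent of reads outside features, and CPM of Ctsb, Hexa, Lamp1 and Ctsl. U6 has the lowest marker sum (245 CPM), the most reads outside features (24.7%) and the highest Ctsl (702 CPM), and U7 lies nearest to the AAV9-LMNA libraries for Ctsb, Hexa and Lamp1.

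Of 9 V-ATPase members 4 rose, 0 fell and 5 were not called, where 18.4% of coding genes were called higher. With Ensembl genes alone 1 was higher in V0 and 0 in V1. After the length and GC correction 0 were higher in either part, with a median of -0.32 in V0 and 0.08 in V1. In the membrane part V0, Atp6v0e, a small subunit (chromosome 17, 26663231 to 26699647, plus strand), had 20.1, 25.7, 23.2, 24.1 and 26.7 CPM in AAV9-LMNA hearts, against 12.1, 18.7 and 13.4 CPM in untreated hearts. The groups did not overlap, and replicate 7 was again the highest untreated heart. Its log2 difference was 0.70 ± 0.16 (SE, edgeR adjusted p = 0.0116), 0.51 and called with Ensembl genes alone, and 0.41 after the length and GC correction (edgeR adjusted p = 0.0769). Atp6v0a1, the subunit that forms the proton path, and Atp6v0d1, which joins V0 to the central stalk, had log2 fold changes of -0.21 and 0.067 and were not called (edgeR adjusted p = 0.235 and 0.675).

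In the cytosolic part V1, 3 subunits rose, all of its stalks. Atp6v1e1, of the outer stalk (chromosome 6, 120794305 to 120822793, minus strand), had 117, 99.3, 104, 112 and 104 CPM in AAV9-LMNA hearts, against 82.9, 79.0 and 70.1 CPM in untreated hearts. The lowest AAV9-LMNA value was above the highest untreated one. AAV9-LMNA over untreated, the log2 ratio was 0.47 ± 0.096 (SE, edgeR adjusted p = 0.0078), and 0.27 without a call with Ensembl genes alone (edgeR adjusted p = 0.129), as it was after the length and GC correction (0.17, edgeR adjusted p = 0.398).

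Atp6v1f, of the rotating stalk (chromosome 6, 29467718 to 29470512, plus strand), had 33.8, 36.7, 36.0, 32.9 and 37.0 CPM in AAV9-LMNA hearts, against 21.4, 29.3 and 28.0 CPM in untreated hearts. It showed no overlap and had a log2 ratio of 0.43 ± 0.12 (SE, edgeR adjusted p = 0.0242). At 1063 exonic bases it is the shortest member, and after the length and GC correction its value was -0.015, and 0.24 without a call with Ensembl genes alone (edgeR adjusted p = 0.113). Leaving out any 1 of AAV9-LMNA replicates 2, 3 and 5 and untreated replicate 6 ended the call (0.31 to 0.41, edgeR adjusted p 0.0512 to 0.0559).

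Atp6v1d, also of the rotating stalk (chromosome 12, 78840725 to 78861638, minus strand), had 118, 108, 101, 102 and 109 CPM in AAV9-LMNA hearts, against 96.0, 79.8 and 88.0 CPM in untreated hearts. Its ranges lay side by side, and the log2 ratio of 0.29 ± 0.096 (SE) was the smallest of the called members (edgeR adjusted p = 0.0449). Leaving out any 1 library other than untreated replicate 6 ended the call (0.24 to 0.30, edgeR adjusted p 0.0738 to 0.102). The value was 0.086 with Ensembl genes alone and 0.047 after the length and GC correction, neither called (edgeR adjusted p = 0.645 and 0.845), and the call was also lost with a minimum of 1 CPM in 3 libraries (0.24, edgeR adjusted p = 0.0881). The catalytic subunit Atp6v1a, its partner Atp6v1b2 and the regulatory Atp6v1h had log2 fold changes of 0.34, 0.16 and 0.24 and were not called (edgeR adjusted p 0.0986 to 0.289). Subunits of 1 pump were therefore not all called, and whether called and uncalled subunits differ was not tested.

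**Figure D4:**
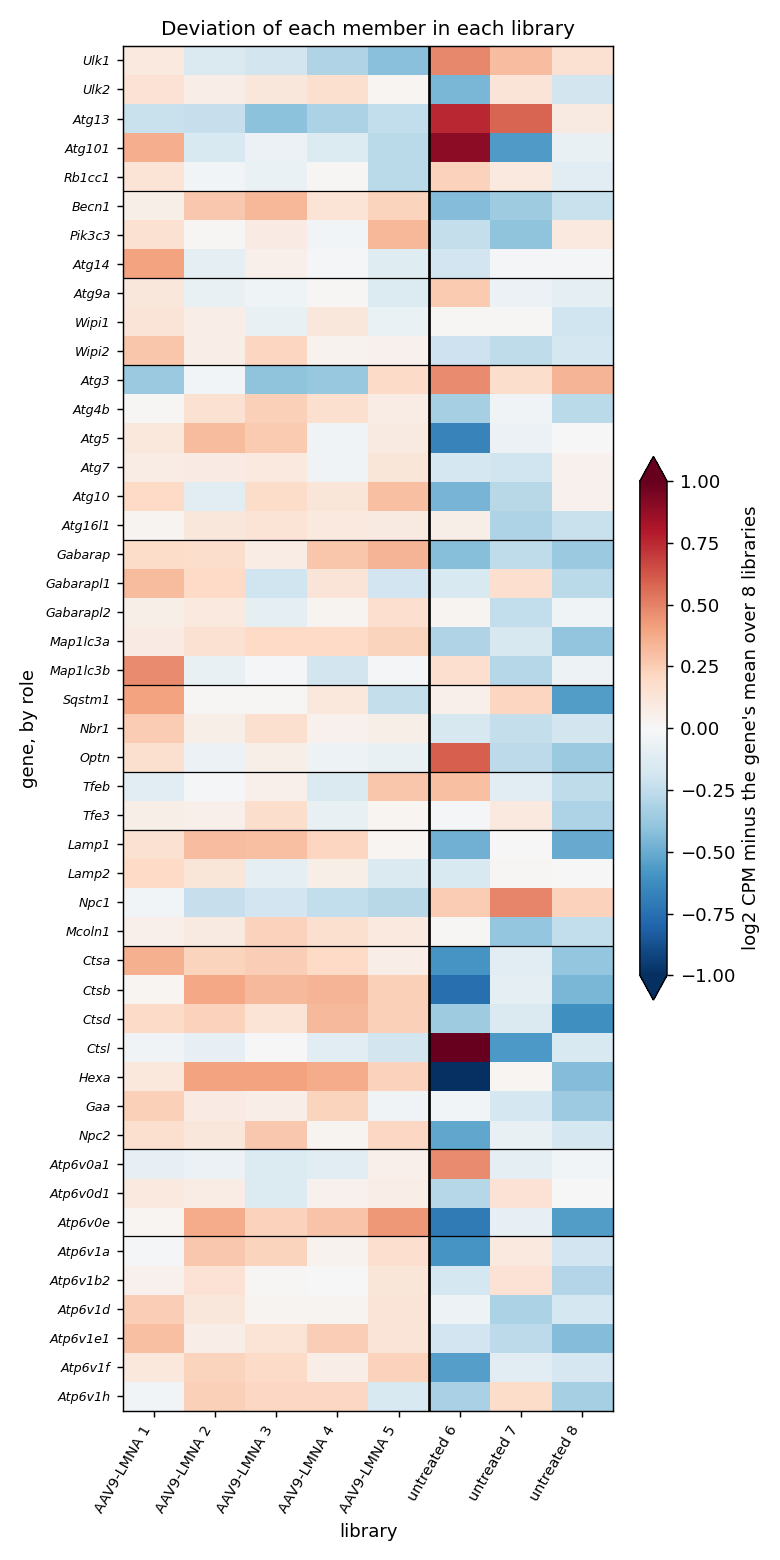
Log2 CPM of each of the 47 tested members (rows, by role) minus its mean over the 8 libraries (columns, AAV9-LMNA left and untreated right of the line), with colours limited to 1 on either side. Untreated replicate 6 holds the strongest colours, high for Atg13, Atg101 and Ctsl and low for Hexa, Ctsb and Atp6v0e.

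Levels per length place the members in order. Length-scaled transcript levels (TPM) were computed over Ensembl genes with the exonic length, and used only to order genes, since on this scale the median coding gene was -0.12 on the log2 scale in AAV9-LMNA over untreated hearts, beside 0.21 in CPM. In AAV9-LMNA hearts the order began with Ctsd, Map1lc3a, Lamp1 and Sqstm1, and in untreated hearts with Map1lc3a, Ctsd, Sqstm1 and Lamp1. Exonic bases shared with other GENCODE genes made up 34.4% for Ctsd, 17.3% for Sqstm1, 9.31% for Lamp1 and 0% for Map1lc3a. NONCODE genes are left out of these shares, so 0% does not show that no reads were dropped. The full length was used for each, so the order among these genes is uncertain. Ctsd had 647 ± 76.9 TPM in AAV9-LMNA and 545 ± 86.0 TPM in untreated hearts (SD, n = 5 and 3). Map1lc3a had 627 ± 65.5 TPM in AAV9-LMNA and 577 ± 48.5 TPM in untreated hearts, within the spread of Ctsd. Lamp1 had 516 ± 54.6 TPM in AAV9-LMNA and 455 ± 78.5 TPM in untreated hearts, and Sqstm1 had 426 ± 51.1 TPM in AAV9-LMNA and 496 ± 133 TPM in untreated hearts.

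On this scale the LC3 gene Map1lc3a stood above Map1lc3b (70.2 ± 9.19 TPM in AAV9-LMNA, 84.1 ± 17.8 TPM in untreated hearts) in both groups. That gap depends on the exonic length, which joins all annotated exons, 1181 bases for Map1lc3a and 7517 for Map1lc3b. In CPM the 2 genes averaged 254 and 183 in AAV9-LMNA and 186 and 171 in untreated hearts. Among V-ATPase subunits Atp6v1f had 96.5 ± 10.3 TPM in AAV9-LMNA and 90.1 ± 9.85 TPM in untreated hearts, the highest of that group in both. This rank also depends on its exonic length of 1063 bases, the shortest of the members. In CPM it averaged 35.3 in AAV9-LMNA hearts, below Atp6v1d (108) and Atp6v1e1 (107). Most initiation genes were low, such as Atg14 with 9.50 ± 0.853 TPM in AAV9-LMNA and 11.1 ± 0.212 TPM in untreated hearts. Atg3 and Atg12 are left out of this order, since their counts give no level.

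**Figure D5:**
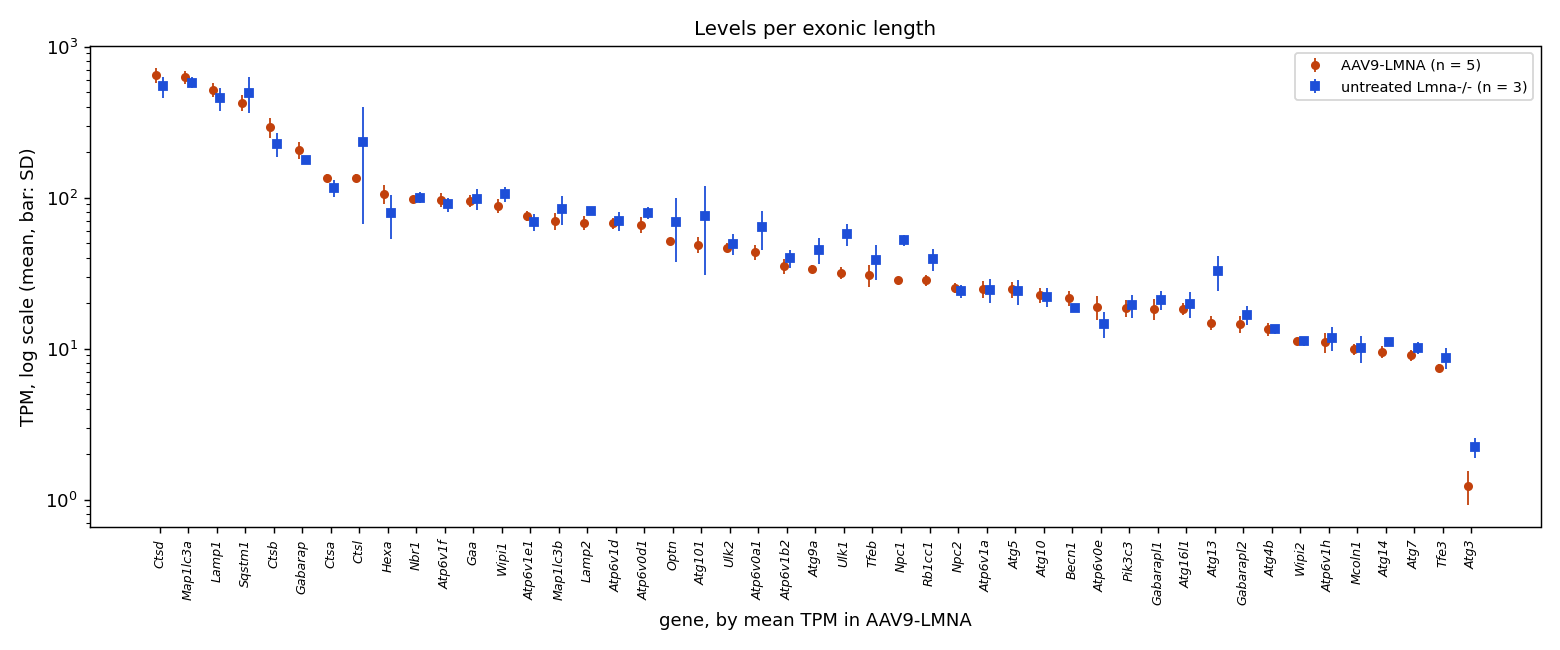
Mean TPM with SD (y axis, log scale) of the 47 tested members, ordered by their mean in AAV9-LMNA (circles, n = 5), with untreated hearts as squares (n = 3). Ctsd, Map1lc3a, Lamp1 and Sqstm1 form the top of the range, and the point of Atg3 is no measure of its level.

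Further genes of the pathway, 146 in 7 lists, were counted the same way. Of 140 tested 34 rose (24.3%) and 5 fell (3.57%), beside the 18.4% and 6.07% of coding genes, and 6 V-ATPase genes did not pass the filter on low counts. With Ensembl genes alone 6 were higher and 7 lower, where 4.49% and 8.73% of coding genes were. After the length and GC correction 2 were higher and 5 lower, where 2.40% and 5.05% of coding genes were. Of 39 other hydrolases and their activators 8 rose and 0 fell, with a median log2 fold change of 0.34. With Ensembl genes alone 2 were higher and 1 lower, and after the length and GC correction 0 were higher and 1 lower. Psap, the precursor of saposins, rose by 0.48 on the log2 scale (edgeR adjusted p = 0.00484), and was 0.28 and 0.18, not called, under those scalings (edgeR adjusted p = 0.128 and 0.381).

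Of 22 other membrane and sorting genes 7 rose and 0 fell, with 2 higher with Ensembl genes alone and 1 after the length and GC correction. M6pr, a receptor that brings hydrolases to the lysosome, had 63.3, 65.6, 65.3, 63.1 and 63.1 CPM in AAV9-LMNA hearts, against 35.0, 51.3 and 40.7 CPM in untreated hearts. The AAV9-LMNA values were close to each other and all higher, and its rise of 0.60 stayed called after the length and GC correction (0.32, edgeR adjusted p = 0.0491). Laptm4a rose by 0.68 (0.32 and not called after the correction), and Ostm1, partner of a lysosomal chloride transporter, by 0.47, a call lost without any 1 of AAV9-LMNA replicates 2 to 5 and untreated replicate 6 (edgeR adjusted p up to 0.0672). Of 17 further V-ATPase genes tested 5 rose and 0 fell, among them the accessory subunit Atp6ap1 (0.49), the V0 isoform Tcirg1 (0.56) and the V1 subunit Atp6v1g2 (0.89). None of these 17 was called higher with Ensembl genes alone or with length and GC corrected. The 3 named then had 0.29, 0.37 and 0.68 with Ensembl genes alone and 0.13, 0.33 and 0.49 with the correction (edgeR adjusted p 0.0517 to 0.454).

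Control genes of the mTORC1 kinase, which holds autophagy and TFEB back when nutrients are plentiful, moved both ways, with 7 of 23 higher and 3 lower. The balance turned with Ensembl genes alone, with 2 higher and 4 lower, and after the length and GC correction, with 1 higher and 3 lower. It turned over coding genes too, from 18.4% higher and 6.07% lower in the main fit. There the shares were 4.49% and 8.73% with Ensembl genes alone, and 2.40% and 5.05% after the correction. Lamtor4, of the lysosomal anchor of mTORC1, rose by 0.72 and Mlst8, a subunit of mTORC1, by 0.79, and Mlst8 stayed called after the length and GC correction (0.63). Prkaa2, the AMPK catalytic subunit of muscle, which activates ULK1, had 115, 106, 104, 118 and 106 CPM in AAV9-LMNA hearts, against 184, 152 and 154 CPM in untreated hearts. It fell without overlap, with a log2 fold change of -0.57 and -0.53 after that correction (edgeR adjusted p = 0.00381 and 0.0249).

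Of 14 genes for fusion of autophagosome and lysosome 6 rose and 1 fell, and with Ensembl genes alone, as after the length and GC correction, 0 were higher and 1 was lower. Vps39 and Vps16 of the tethering complexes rose by 0.42 and 0.41 (Vps16 not called without AAV9-LMNA replicate 3, edgeR adjusted p = 0.0582), and had 0.23 and 0.21 with Ensembl genes alone and 0.28 and 0.14 after the correction (edgeR adjusted p 0.104 to 0.516). Plekhm1, an adaptor that joins ATG8 proteins to the tether, fell by 0.51. Of 9 other cargo receptors 1 rose and 1 fell, Tex264 of the endoplasmic reticulum (0.32, 0.11 with Ensembl genes alone, lost without any 1 library other than untreated replicates 6 and 7, edgeR adjusted p up to 0.11) and the large adaptor Wdfy3 (-0.53, and -0.19 without a call after the length and GC correction). Of 16 other autophagosome genes 0 were called by edgeR, DESeq2 or limma-voom, 3 had an unadjusted edgeR p under 0.05, and the CPM ranges of 3 did not overlap.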

How the data were processed

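Total RNA of 8 hearts was extracted with miRNeasy and sequenced from TruSeq libraries, per the labels' protocols. The authors deposited raw read counts per gene, 1 file per heart, over Ensembl and NONCODE genes together. The submitters' processing notes name TopHat2, HTSeq, limma, edgeR and the build GRCm38 (mm10). They give no roles, versions or strand setting. The lines for reads outside features and ambiguous reads were kept out of library sizes.

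Counts were tested with edgeR 4.0.16 (R 4.3.3): TMM scaling, filterByExpr, robust quasi-likelihood test, Benjamini-Hochberg adjustment over 26717 features at 0.05. A standard error is the log2 fold change divided by the root of F. Alternatives were RLE scaling, DESeq2 1.42.0, limma-voom (limma 3.58.1), no filter, at least 1 CPM in 3 libraries, Ensembl genes alone, the same with a loess correction (span 0.5) for transcript length and GC content, each library left out, and untreated replicates 6 and 8 left out together. The edgeR step was tested on simulated data. CPM used the TMM-scaled library sizes. Members called in each role group were given in every library, and up to 3 called genes by smallest p in each further list were named, except that some genes of the hydrolase list are not reported here by name. Mcoln1, Sqstm1, Atg3, Ctsl, M6pr and Prkaa2 were given per library after their values were seen. The members and lists were chosen with earlier results of these data known. The labels do not say that the hearts came from separate animals or litters, and the p-values therefore reflect only how these 8 samples vary, which may be partly technical.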

Additional observations from a re-analysis of the deposited data

Results flagged for a closer look

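In 3 of the 47 tested members 1 AAV9-LMNA library stood apart from the other 4 by Dixon's test (critical value 0.71 for 5 samples), which chance alone flags in about 1 of 20 groups. Atg101 had 35.7 CPM in replicate 1, against 23.1 to 26.7 CPM in the others. Map1lc3b had 244.9 CPM in replicate 1, against 155.8 to 174 CPM in the others. Atp6v0d1 had 36.3 CPM in replicate 3, against 41.1 to 42.6 CPM in the others. None of these genes was called between the groups.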

How the results depend on the processing

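Of the 47 tested members 16 were called higher, and 14 to 18 were under RLE scaling, DESeq2, limma-voom, no filter and a minimum of 1 CPM in 3 libraries. The number was 5 with Ensembl genes alone, 2 with the length and GC correction and 8 without untreated replicates 6 and 8, and it ran from 9 to 19 when 1 library was left out, with 9 without AAV9-LMNA replicate 2 and 9 without replicate 3. The 3 called lower were 3 under every alternative except the length and GC correction and the fit without untreated replicates 6 and 8, with 2 each. Atp6v1f reversed to -0.015 after the length and GC correction. Over all features tested in each fit, 2843 were called higher in the main fit. That number was 1602 and 1528 without AAV9-LMNA replicates 2 and 3, and 4773 without untreated replicate 7. It was 660 with Ensembl genes alone and 342 with the length and GC correction. The cause of these shifts was not tested. The fit with 1 untreated heart assumes that it varies like the others, and a call kept or lost there says little of a member. No paired analysis was possible because the groups share no replicate numbers. Counts of a few CPM, as for Atg3, limit what can be told of low members.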
